A study of Mus musculus with 4 samples.

Results

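In 4 single-cell libraries of the submandibular gland, one of the large salivary glands of the mouse, 89 of 36685 retained cells carried the RNA signature of basal and myoepithelial cells. Barcodes were retained when 300 or more genes were detected and no more than 10% of the UMIs (molecular barcodes that count each captured RNA once) came from mitochondrial genes. A retained cell was a member when its UMIs of Krt5 and Krt14, the keratin pair of basal epithelial cells, summed to 3 or more and it held no UMI of Ptprc (leukocytes), Pecam1 (endothelium) or Pdgfra (fibroblasts). Of the members, 50 had at least 3 UMIs of Acta2 (smooth muscle actin) and are called myoepithelial cells here, 38 had none and are called basal duct cells, and 1 cell lay between. Measured values of these 6 genes chose the cells, so those genes are only described below and nothing is read from their place in a test over all genes.

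All libraries came from female C57BL6/J mice. In the 2 deligated libraries, from mice aged 14 weeks, a metal clip had closed the main excretory ducts of the submandibular gland and of its sublingual neighbour for 14 days and had then been off for 5 days. The 2 homeostatic libraries came from mice aged 12 weeks without surgery. The design asks how the stroma, the tissue between the secretory epithelium, differs after the obstruction is released. For this, cells with EpCAM, an epithelial surface protein, and red blood cells had been depleted with magnetic beads, and dead cells removed, so the members are epithelial cells that remained after a step meant to remove epithelium. The labels do not say that the libraries of a group came from separate animals, so every p-value below measures the spread between these libraries, which may be technical. Age, the Cell Ranger version that made the counts and surgery changed together and cannot be told apart.

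Myoepithelial cells wrap the acini and intercalated ducts of salivary glands from the outside, between the secretory cells and the basement membrane. They are epithelial cells with keratins and hemidesmosomes, and at the same time carry the actin and myosin of smooth muscle, with which they squeeze saliva into the ducts when nerves release acetylcholine or noradrenaline. Basal duct cells line the larger ducts under the luminal layer and share the keratins but not the contractile fibres. The transcription factor p63 (Trp63) marks both kinds, and both have been described as reserve cells of the gland after injury.

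The libraries held 4725 and 8713 barcodes (deligated 1 and 2) and 12854 and 13266 barcodes (homeostatic 1 and 2), with 35662241 to 53898793 UMIs each. The median retained cell held 6139 and 5341 UMIs in deligated 1 and 2 and 3128 and 2975 UMIs in homeostatic 1 and 2. Any pair of libraries shared between 14 and 54 barcodes, at most 0.482% of the smaller library, and none of these belonged to a member. The members were deeper than the average cell, with a median of 8584 UMIs and 3110 genes in myoepithelial and 8104 UMIs and 2770 genes in basal duct cells. Under 0.5% mitochondrial UMIs were found in 5 of the 50 myoepithelial and 9 of the 38 basal duct cells. In homeostatic 2 this held for 6 of 21 basal duct cells, which had only 981 to 2395 UMIs. The members numbered 14 and 6 in the deligated and 21 and 48 in the homeostatic libraries. Deligated 2 held 5 myoepithelial cells and a single basal duct cell, so nothing below is said of basal duct cells in that library beyond its values. In homeostatic 2, 2 members held over 40000 UMIs together with high counts of luminal keratin: 1 myoepithelial cell with 42340 UMIs (118 of Krt18) and 1 basal duct cell with 63050 UMIs (157 of Krt18). Where a printed value moved by over 1.5 times without them, the value without them is given beside it.

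The rule itself set the keratin and Acta2 counts of the members, so these only describe the cells. By excluding Ptprc and Pecam1 it also favoured low immune and endothelial markers. Both keratins had UMIs in 39 of the 50 myoepithelial and 34 of the 38 basal duct cells, and Acta2 ran from 4 to 416 UMIs per myoepithelial cell with a median of 122.5. The rule used none of the other contractile genes, and Myh11, the smooth muscle myosin heavy chain, had a UMI in 50 of 50 myoepithelial and 1 of 38 basal duct cells. Trp63 was found in 41 and 25 cells of the respective kinds. Genes that define other cells were low in most sums: in myoepithelial and basal duct cells none of the 10 endothelial, 10 mural or 14 immune markers reached 50 CPM (UMIs scaled to a sum of 1000000 per kind and library) in homeostatic 2, and Rgs5, the leading pericyte gene, had 1 UMI in all 50 myoepithelial cells. Basal duct cells of homeostatic 1 were the exception, with 403 CPM summed over the immune and 953 CPM over the erythroid markers, of which 2 and 3 genes reached 50 CPM and were 4-fold above myoepithelial cells. The part of such RNA in the results was not tested. Around the threshold, 9 cells had exactly 3 keratin UMIs and were members, and 20 cells had exactly 2 and were not. A further 18 cells had 3 or more keratin UMIs but also Ptprc, Pecam1 or Pdgfra. As a measure of free RNA, keratin sums of 3 or more occurred in 0% to 0.188% of Ptprc-positive and 0% to 0.0721% of Pecam1-positive cells of a library. Acta2 sums of 3 or more, the threshold between the kinds, occurred in 0.125% to 1.35% and 0.335% to 1.89% of the same cells. Leukocyte Acta2 was at 217 and 122 CPM in the deligated and 24.1 and 15.1 CPM in the homeostatic libraries.

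**Figure D1:**
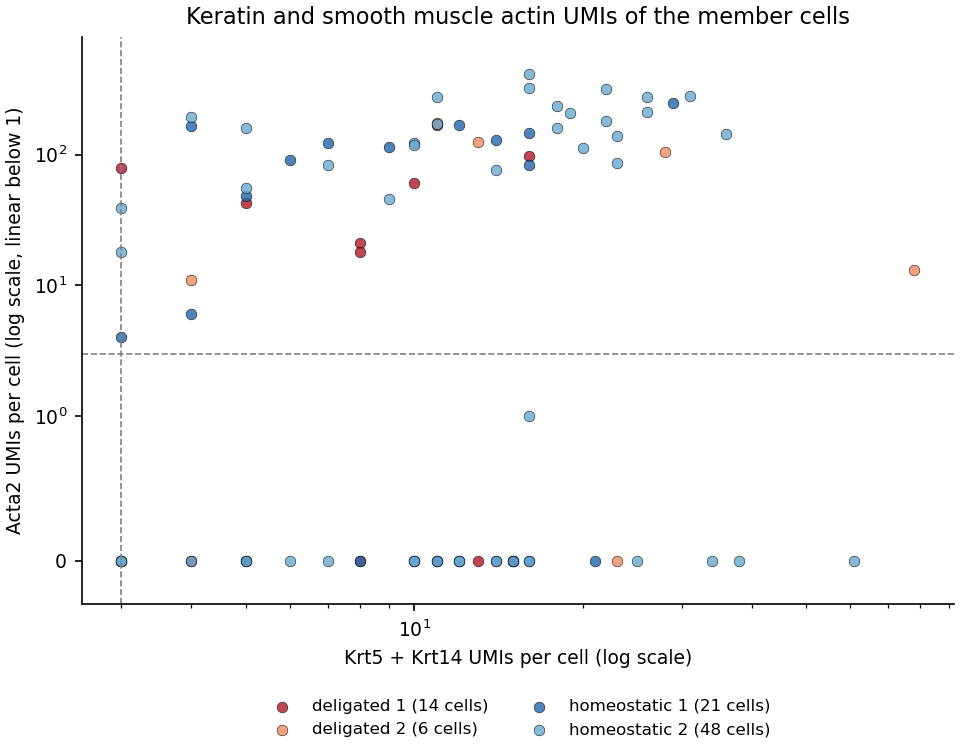
UMIs of Krt5 plus Krt14 (x axis, log scale) and of Acta2 (y axis, log scale, linear below 1) in each of the 89 member cells, coloured by library, with dashed lines at the thresholds of 3 UMIs. Cells with the same counts lie on top of each other. Myoepithelial cells spread from 4 to 416 Acta2 UMIs, basal duct cells lie at 0, and 1 cell lies between.

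The share of members among retained cells did not pass the test between the groups. Myoepithelial cells made up 0.155% (7 cells) and 0.0596% (5 cells) of the deligated and 0.102% (12 cells) and 0.215% (26 cells) of the homeostatic libraries. Basal duct cells made up 0.155% (7 cells) and 0.0119% (1 cell) against 0.0768% (9 cells) and 0.174% (21 cells). In both kinds deligated 1 lay between the homeostatic libraries, and deligated 2 was the lowest. The log2 ratio of deligated to homeostatic shares was -0.76 for myoepithelial cells (SE 0.70, edgeR adjusted p = 0.426), -0.99 for basal duct cells (SE 1.10, edgeR adjusted p = 0.426) and -0.87 for all members (SE 0.88, edgeR adjusted p = 0.392). Cells were also thinned to 1000 UMIs each, which evens out the deeper deligated cells. Retained cells under 1000 UMIs dropped out, 74 and 181 in the deligated and 2463 and 2694 in the homeostatic libraries. After thinning, 0 and 1 myoepithelial cells were left in the deligated and 3 and 8 in the homeostatic libraries. Both deligated shares then lay below both homeostatic ones, with a log2 ratio of -2.68 (edgeR adjusted p = 0.0539), and that for all members was -1.72 (edgeR adjusted p = 0.0523). Without deligated 2 the unthinned ratio for all members was 0.09 and that for basal duct cells 0.29. With the replicate number as a block the ratio for all members was -0.78 (edgeR adjusted p = 0.544).

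Against the other epithelium the members were many more in the deligated libraries. Other epithelial cells, those with 3 or more UMIs of Epcam, Krt8 and Krt18 but outside the member rule and without Ptprc, Pecam1 or Pdgfra, made up 0.243% of deligated 1, 0.429% of deligated 2 and 8.20% of either homeostatic library (log2 ratio -4.51, SE 0.21, edgeR adjusted p = 0.000451). Members were 14 of 25 epithelial cells (56.0%) in deligated 1, 6 of 42 (14.3%) in deligated 2, 21 of 982 (2.14%) in homeostatic 1 and 48 of 1037 (4.63%) in homeostatic 2. Both deligated libraries lay above both homeostatic libraries, and the log2 ratio with epithelial cells as the denominator was 3.30 (SE 0.88, edgeR adjusted p = 0.0402). The direction of the member share thus turned with the denominator. How far beads removed each kind of cell in each group was not tested. Epcam itself stood at 252 and 184 CPM in the deligated and 70.7 and 387 CPM in the homeostatic libraries in myoepithelial cells and at 926 and 1249.7 CPM in the deligated and 476 and 682 CPM in the homeostatic libraries in basal duct cells. In homeostatic 2 the 2 members of over 40000 UMIs held much of it, and without them the levels there were 86.5 CPM in myoepithelial and 457 CPM in basal duct cells. In myoepithelial cells both deligated libraries then lay above both homeostatic ones.

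Myoepithelial cells were 50.0% (7 of 14), 83.3% (5 of 6), 57.1% (12 of 21) and 55.3% (26 of 47) of the 2 kinds together in deligated 1, deligated 2, homeostatic 1 and homeostatic 2. The group means of 66.7% and 56.2% differed by 10.4 percentage points, with the deligated libraries on both sides of the homeostatic ones (exact permutation test of 2 against 2 libraries, two-sided p = 1, where the smallest possible p is 0.33). Without deligated 2 the difference was -6.23 points.

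**Figure D2:**
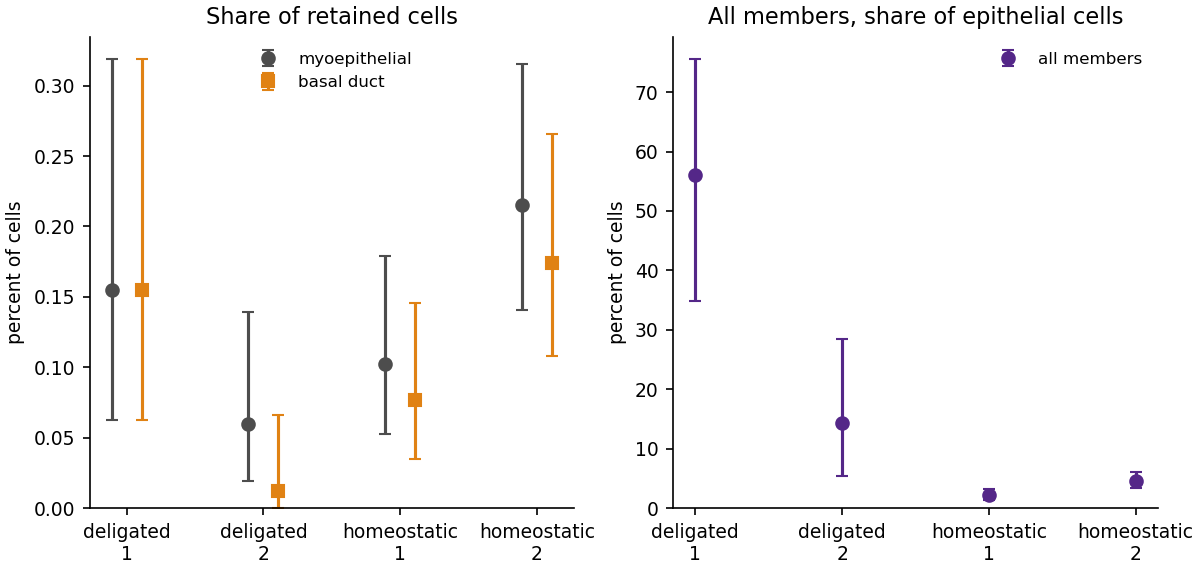
Myoepithelial and basal duct cells as a percentage of retained cells (left panel) and all members as a percentage of epithelial cells (right panel) in each of the 4 libraries. Points are measured shares and bars are 95% Clopper-Pearson intervals, which cover counting error only. On the left the groups overlap, and on the right members make up 56.0% and 14.3% of epithelial cells (deligated) and 2.14% and 4.63% (homeostatic).

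The 2 kinds of member were compared in homeostatic 2, the only library with at least 10 cells of each, and the other libraries then served to show the same genes in cells that had not chosen them. Since the rule had split the cells by Acta2 and each value is 1 sum, this is a description without a test. Intervals given with CPM values are exact 95% Poisson intervals and cover counting error only. Of 4269 genes at 50 CPM or more in either kind, 275 (6.44%) were at least 4-fold higher in myoepithelial and 174 (4.08%) at least 4-fold higher in basal duct cells, on a scale with 10 CPM added to each value. Without the 2 members of over 40000 UMIs the counts were 330 and 229. The shares over all genes are the background of the list counts that follow. In homeostatic 1, 267 of the 275 and 156 of the 174 had the same direction. In deligated 1 the numbers were 252 and 116, and in deligated 2, with 1 basal duct cell, 236 and 38.

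Of the 12 genes that led the myoepithelial side, 7 were contractile genes, among them Acta2, which the rule used. Of the 15 genes of that list at 50 CPM or more, without Acta2, all 15 were at least 4-fold higher in myoepithelial cells of homeostatic 2, with a median log2 ratio of 5.58 against -0.03 over all genes, and 14 were so without the 2 members of over 40000 UMIs. Myh11 was at 3315 and 1545 CPM in the deligated and 4664 and 4216 CPM in the homeostatic libraries in myoepithelial cells, and basal duct cells held 1 and 0 UMIs (deligated 1 and 2) and 0 and 0 UMIs (homeostatic 1 and 2). Myl9, a regulatory light chain of smooth muscle myosin, was at 1317 and 1637 CPM in the deligated and 1955 and 2072 CPM in the homeostatic libraries. Tpm2, a tropomyosin that lies along the actin filament, was at 4262 and 4682 CPM and 9469 and 9325 CPM, against 77.1 and 0 CPM and 12.2 and 35.9 CPM in basal duct cells. The other leaders from the list were Tagln (transgelin), Cnn1 (calponin) and Lmod1 (leiomodin, which seeds actin filaments).

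Several leading myoepithelial genes are not on the contractile list. Pcp4, a small regulator of calmodulin, was at 1628 and 3090.3 CPM in the deligated and 2497 and 4208 CPM in the homeostatic libraries and had no UMI in any of the 38 basal duct cells, which allows up to 16.6 CPM in homeostatic 2. Cck, the gene of the peptide hormone cholecystokinin, was at 739.9 and 1084 CPM in the deligated and 1555 and 1261 CPM in the homeostatic libraries and had 1 UMI in all basal duct cells. Igfbp2, a binding protein of insulin-like growth factors, was found in all 50 myoepithelial cells at 1628 and 2122 CPM in the deligated and 1625 and 1665 CPM in the homeostatic libraries, against 77.1 and 0 CPM and 122 and 71.8 CPM in basal duct cells. Each of these genes was high in every library, so that the lowest myoepithelial value lay above the highest basal duct value. Pcp4 and Cck were among the 12 leaders over basal duct cells, and Igfbp2 was not. The brain-type creatine kinase Ckb, the protease Prss23 and the intermediate filament protein synemin (Synm) completed the 12. Synm overlaps Ttc23, and Prss23 overlaps Prss23os, on the opposite strand, and the headers and labels do not say whether counting used strand.

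Basal duct cells were led by other genes. Robo2, a receptor for Slit guidance proteins, had no UMI in any myoepithelial cell (which allows up to 14.7 CPM in homeostatic 2) and stood at 1099.6 and 947 CPM (interval 824 to 1084 CPM in homeostatic 2) in homeostatic basal duct cells, against 57.9 and 249.9 CPM from 3 and 1 UMIs in the deligated ones. Ly6d, a surface protein of stratified and basal epithelia, was at 2912 and 3749 CPM in the deligated and 904 and 1315 CPM in the homeostatic libraries and at most at 7.98 CPM in myoepithelial cells (4.80 CPM without the high-UMI member). It had a UMI in 32 of 38 basal duct and 2 of 50 myoepithelial cells. Ptn (pleiotrophin, a heparin-binding growth factor) was at 1943 and 1019 CPM in the homeostatic libraries against 11.8 and 3.99 CPM in myoepithelial cells of the same libraries. Smoc2, a secreted calcium-binding matrix protein, was at 347 and 749.8 CPM in the deligated and 782 and 673 CPM in the homeostatic libraries, and myoepithelial cells were at 14.8 and 0 CPM and 0 and 12.0 CPM (4.80 CPM in homeostatic 2 without the high-UMI member). Of the 12 leaders on this side, Csgalnact1, Tenm2, Cntn3, Cntn5 and Robo2 each have over 100 kb of intron. The basal duct cells of each deligated library held at most 3 UMIs of any of them.

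Some basal leaders depended on 1 cell. All 49 UMIs of Esp4 came from the basal duct cell of 63050 UMIs. Without that cell Fos, an immediate early gene, was at 225 CPM in basal duct cells of homeostatic 2 and not 741 CPM. Of 17 immediate early and dissociation genes at 50 CPM or more, 11 were at least 4-fold higher in basal duct than in myoepithelial cells of homeostatic 2, and 7 without both high-UMI members. In homeostatic 1 the count was 1 of 12.

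**Figure D3:**
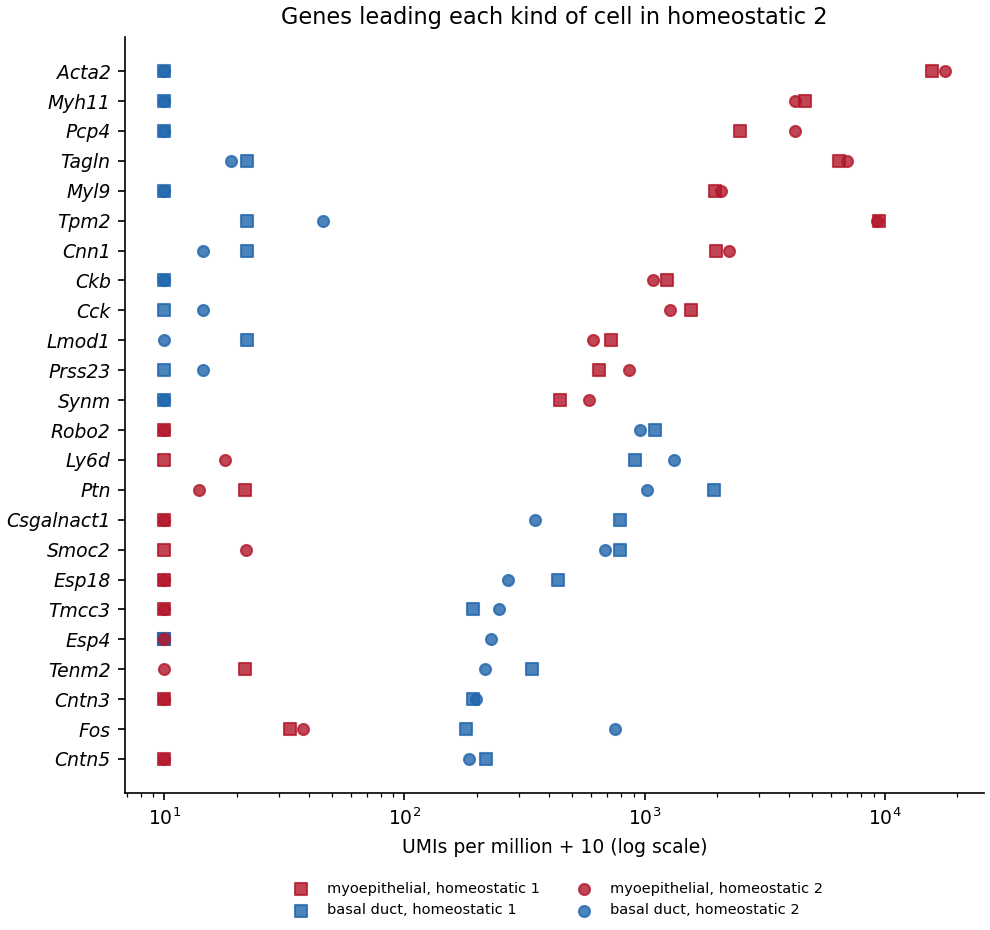
Levels (CPM plus 10, log scale) of the 12 genes that led myoepithelial cells and the 12 that led basal duct cells in homeostatic 2, for both kinds of cell in both homeostatic libraries. The genes were chosen on the circles and the squares are the other library. Acta2 was part of the rule, and Esp4 rests on 1 cell of homeostatic 2.

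The epithelial programme itself was split between the kinds. Krt15, a keratin of basal layers, was at 251 and 0 CPM in the deligated and 281 and 260.3 CPM in the homeostatic libraries in basal duct cells, and 4 of 50 myoepithelial cells held a UMI of it. Krt17 was the reverse in homeostatic cells, at 518 and 679 CPM in myoepithelial against 269 and 247 CPM in basal duct cells, and was at 710.3 and 1130.0 CPM and 906 and 249.9 CPM in the deligated libraries. Lgals7, a galectin of stratified epithelia, was at 82.4 and 112 CPM (72.1 CPM in homeostatic 2 without the high-UMI member) in myoepithelial and 342 and 346 CPM in basal duct cells of the homeostatic libraries. No gene of the keratin and squamous list was 4-fold higher in myoepithelial cells, and 2 of 10 at 50 CPM or more were 4-fold higher in basal duct cells (3 without the high-UMI members).

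Several integrin and matrix genes were higher in myoepithelial cells, while Itgb4 was not. Of 8 hemidesmosome and integrin genes at 50 CPM or more in homeostatic 2, none was 4-fold higher in either kind. In homeostatic 1, 2 of 8 were 4-fold higher in myoepithelial cells and none in basal duct cells. The laminin-binding integrin Itga6 was at 755 and 692 CPM in the deligated and 754 and 607 CPM in the homeostatic libraries in myoepithelial cells and at 354 and 247 CPM in homeostatic basal duct cells. Itgb1 was at 612 and 603 CPM and 171 and 238 CPM, whereas Itgb4, the hemidesmosomal partner of Itga6, was at 82.4 and 75.8 CPM in myoepithelial and 73.3 and 229 CPM in basal duct cells. The matrix genes Sparc and Col4a1 (a chain of type IV collagen) were at 1978 and 1397 CPM and 777 and 679 CPM in homeostatic myoepithelial against 219.9 and 175 CPM and 171 and 135 CPM in basal duct cells. Over 13 basement membrane genes at 50 CPM or more the median log2 ratio of myoepithelial to basal duct cells was 1.05, with 2 of them 4-fold higher in myoepithelial cells and none in basal duct cells. Col4a1 shares its locus with Col4a2 on the opposite strand.

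Transcription factors were compared between the kinds. Trp63 was at 224 and 307 CPM in myoepithelial and 318 and 202 CPM in basal duct cells of the homeostatic libraries, which is no clear order. Sox10, a neural crest and exocrine progenitor factor, was at 163 and 231 CPM in the deligated and 94.2 and 204 CPM in the homeostatic libraries in myoepithelial cells, and its 4 UMIs in basal duct cells all came from the cell with 63050 UMIs. Tfcp2l1, a factor of ducts in kidney and glands, was at 1909 and 1249.7 CPM in the deligated and 1319.5 and 1669.6 CPM in the homeostatic libraries in basal duct cells and at 0 and 23.1 CPM and 11.8 and 87.8 CPM in myoepithelial cells (24.0 CPM in homeostatic 2 without the high-UMI member). Sox4 was at 574 and 597 CPM in basal duct against 141 and 124 CPM in myoepithelial cells. Of 16 such factors at 50 CPM or more, 2 were 4-fold higher in myoepithelial and 6 in basal duct cells (1 and 5 without the high-UMI members), against 6.44% and 4.08% of all genes. In homeostatic 1 the counts were 2 and 1 of 11.

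Some ligands were found mainly in 1 kind. Fgf7, a growth factor for epithelium that is better known from mesenchyme, was at 163 and 231 CPM in the deligated and 141 and 139.7 CPM in the homeostatic libraries in myoepithelial cells, was found in 33 of 50, and had no UMI in basal duct cells. Nrg1, a ligand of the ErbB receptors, had 8 and 0 UMIs (deligated 1 and 2) and 19 and 26 UMIs (homeostatic 1 and 2) in myoepithelial cells and 1 UMI in all basal duct cells. Kitl, the ligand of the Kit receptor, was at 542 and 495 CPM against 134 and 85.3 CPM. Basal duct cells held Il33, an alarm cytokine, with 29 and 0 UMIs (deligated 1 and 2) and 9 and 30 UMIs (homeostatic 1 and 2) and none in myoepithelial cells, and of Wnt10a, with 4 and 0 UMIs (deligated 1 and 2) and 7 and 13 UMIs (homeostatic 1 and 2) against 1 UMI. Slit2, a ligand of Robo receptors, was at 635 and 399 CPM in homeostatic basal duct and 23.6 and 20.0 CPM in myoepithelial cells, and its relative Slit3 was the reverse, at 12.2 and 18.0 CPM (0 in homeostatic 2 without the high-UMI member) and 236 and 244 CPM. Of 22 ligands at 50 CPM or more, 7 were 4-fold higher in myoepithelial (6 without the high-UMI members) and 5 in basal duct cells, against 6.44% and 4.08% of all genes, and the other 10 were not 4-fold apart. Fgf7 overlaps Fam227b, and Nrg1 overlaps Gm26578, on the opposite strand.

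Among receptors, Lgr4 and Lgr6, which bind R-spondins, were higher in basal duct cells, but the list as a whole was not. Of 20 listed receptors of basal cells at 50 CPM or more in homeostatic 2, 1 was 4-fold higher in myoepithelial and 2 in basal duct cells. Without the high-UMI members the counts were 1 and 3, against 6.44% and 4.08% of all genes. In homeostatic 1 they were 3 and 3 of 19. Lgr4 was at 391 and 390.5 CPM in homeostatic basal duct against 70.7 and 43.9 CPM in myoepithelial cells, and Lgr6 at 134 and 71.8 CPM against 0 and 3.99 CPM. Lgr5, a stem cell marker of other epithelia, had no UMI in any member. Egfr did not separate the kinds, at 389 and 283 CPM and 391 and 314 CPM. Of the receptors through which nerves and hormones make myoepithelial cells contract, the muscarinic receptor Chrm3 was the only one of 18 listed genes at 50 CPM or more in homeostatic 2, at 1284 and 958 CPM in myoepithelial and 269 and 314 CPM in basal duct cells of the homeostatic libraries. The oxytocin receptor Oxtr, known from mammary myoepithelium, had no UMI in the 50 cells, which allows up to 14.7 CPM in homeostatic 2.

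Of 10 luminal keratin and junction genes at 50 CPM or more in homeostatic 2, 2 were 4-fold higher in basal duct cells (5 without the high-UMI members) and none in myoepithelial cells. Krt7 was at 1889.8 and 1499.6 CPM in the deligated and 476 and 651 CPM in the homeostatic libraries in basal duct and 163 and 254 CPM and 247 and 407 CPM in myoepithelial cells. In deligated 1, 74 of the 98 Krt7 UMIs came from 1 of the 7 basal duct cells, and the other 6 cells were at 606 CPM, inside the homeostatic range. Wfdc2, a secreted protease inhibitor of ducts, was at 354 and 566 CPM against 11.8 and 43.9 CPM in the homeostatic libraries (24.0 CPM in homeostatic 2 without the high-UMI member). For Krt18 the member of 42340 UMIs decided the value: myoepithelial cells of homeostatic 2 were at 483 CPM with it and at 14.4 CPM without it, and those of homeostatic 1 had no UMI. Krt8 was higher in myoepithelial cells, at 542 and 551 CPM in myoepithelial and 257 and 350.1 CPM in basal duct cells (219 CPM in homeostatic 2 without the high-UMI member), and overlaps Gm36026 on the opposite strand.

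Decorin (Dcn), a proteoglycan that usually marks fibroblasts, was present in members in which the other listed fibroblast genes were at or near 0. It stood at 1065 and 1130.0 CPM in the deligated and 942 and 838 CPM in the homeostatic libraries in myoepithelial cells and at 212 and 1249.7 CPM in the deligated and 1503 and 1203 CPM in the homeostatic libraries in basal duct cells, with a UMI in 45 of 50 and 25 of 38 cells. Fibroblasts (Pdgfra alone) were at 14920.1 and 18019.6 CPM and 16034 and 15910.1 CPM, while leukocytes (Ptprc alone) of the same libraries were at 14.2 and 45.7 CPM and 4.98 and 13.4 CPM. The fibrillar collagen genes Col1a1 and Col3a1 had 2 UMIs each over all 88 cells of both kinds. The Dcn level of leukocytes lay below that of both kinds of member in each of the 4 libraries.

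Myoepithelial cells share Acta2 with mural cells, the smooth muscle cells and pericytes of vessels. The comparison cells were 612 cells with 3 or more UMIs of Acta2, no keratin UMI and none of the 3 excluded genes. Of 3650 genes at 50 CPM or more, 247 (6.77%) were at least 4-fold higher in myoepithelial cells in both homeostatic libraries and 334 (9.15%) in the mural cells. In the deligated libraries, which were not used for that choice, 230 and 225 of the 247 and 330 and 333 of the 334 had the same direction. Within the contractile list the kinds were close, with a median log2 ratio of -0.17 over 17 genes in homeostatic 2 against 0.08 over all genes, and 2 genes 4-fold apart in each direction. Cnn1 was at 1967 and 2232 CPM in homeostatic myoepithelial and 156 and 116 CPM in mural cells, and the smooth muscle gamma-actin Actg2 at 306 and 403 CPM against 8.89 and 3.87 CPM. Desmin (Des) was at 709 and 650.1 CPM in mural cells and had no UMI in homeostatic myoepithelial cells. Besides the keratins, which the rule used, Cck, Igfbp2, Pcp4, Krt17, Chrm3, Itga6 and Dcn led on the myoepithelial side, and Rgs5, Crip1, Ndufa4l2, Igfbp7, Mustn1 and Ebf1 on the mural side. All 10 listed mural markers were at least 4-fold higher in mural cells.

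Basal duct cells were set beside the other epithelial cells of the gland, 983 cells of homeostatic 2 without keratin 5 and 14. Of 3531 genes 1070 (30.3%) were at least 4-fold higher in basal duct cells and 68 (1.93%) in the other cells (876 and 87 without the basal duct cell of 63050 UMIs). The secretory transcript Mucl2 alone took 341175 CPM of the other epithelial cells, which lowers the CPM of every other gene there, so the first count is not a count of basal genes. Among the leaders, Robo2, Ptn, Smoc2, Dcn and Ucma, a small secreted matrix protein, were at 947, 1019, 673, 1203 and 664 CPM in basal duct cells of homeostatic 2 and at 0.579, 6.56, 1.54, 6.56 and 2.89 CPM in the other epithelial cells. The other cells were led by secretory products such as Dcpp1, Dcpp2, Dcpp3, Scgb2b26, Pip and Bpifa2.

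Expression between the groups was tested in the myoepithelial cells and in all members, on UMIs summed per library. The plan had asked for 10 cells in every library, which no kind reached, and the minimum of 5 was set after the data were seen. Basal duct cells were not tested. The myoepithelial sums held 67577 UMIs (7 cells) and 43361 UMIs (5 cells) in the deligated libraries, and 84913 UMIs (12 cells) and 250503 UMIs (26 cells) in the homeostatic ones. In myoepithelial cells 77 of 1356 genes (5.68%) differed by edgeR at an adjusted p under 0.05, 23 (1.7%) higher and 54 (3.98%) lower in the deligated libraries. The fit covered all genes, and the calls include Acta2, which the rule used. Without it 76 genes were called, 53 of them lower. Genes with over 100 kb of intron held 37 of the 77 calls from 212 tested, and genes with at most 2 kb held 12 from 250 tested, with a Spearman coefficient of -0.24 between fold change and intron length across genes. When the trend with intron length was removed, 29 genes were higher and 23 lower. The 10 endothelial markers summed to 74.0 and 161 CPM in deligated and 11.8 and 7.98 CPM in homeostatic myoepithelial cells, the 14 immune markers to 59.2 and 92.2 CPM and 35.3 and 31.9 CPM, and the part of such RNA in the calls was not tested. The count was 45 without homeostatic 2, 147 without deligated 1, 211 without deligated 2 and 17 with the replicate number as a block.

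Contractile genes lay lower in deligated than in homeostatic myoepithelial cells, and the calls rested on 1 cell. Of 14 tested genes of the list (without Acta2), 4 fell (Tagln, Tpm2, Cnn1 and Tpm1) and none rose. All 14 had negative values, Flna by less than 0.01, with a median log2 difference of -0.76, whereas 673 of all 1356 genes were negative and their median was 0.00. The deligated myoepithelial cell with the most UMIs (15554) held 35.9% of the UMIs summed for deligated 2, with 0 UMIs of Tagln, 8 of Tpm2, 2 of Cnn1, 1 of Myl9 and 13 of Acta2. The same cell held 29 UMIs of Krt5 and 49 of Krt14, the highest keratin sum of any member. In a fit without this cell, added after the data were seen, none of the 14 genes passed by edgeR, 11 of the 14 were negative and the median was -0.59 (-0.02 over all genes). Over all genes that fit called 71. With the intron trend removed, and the cell kept, the list again had 4 lower and 0 higher, with a median of -0.61. Acta2 (ENSMUSG00000035783, chromosome 19, 34241090 to 34255590, minus strand), which the rule used, stood at 7221 and 9871 CPM in the deligated and 15675 and 17776 CPM in the homeostatic libraries (14924 CPM in deligated 2 without the cell of 15554 UMIs). It was among the lower calls of the fit over all genes, and since its counts chose these cells the call is not read as a result.

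Tagln (ENSMUSG00000032085, chromosome 9, 45929619 to 45936058, minus strand), which encodes the actin-binding protein transgelin, was at 1820.2 and 2767 CPM in the deligated and 6465 and 6970.0 CPM in the homeostatic libraries (log2 difference -1.67, SE 0.21, edgeR adjusted p = 0.00312). Both deligated libraries lay below both homeostatic ones. The call was lost under 2 of 16 alternatives, with cells thinned to 1000 UMIs (edgeR adjusted p = 0.0801) and without the cell of 15554 UMIs (0.053), where deligated 2 stood at 4315 CPM and the log2 difference was -1.31. Single cells overlapped: the 12 deligated cells ran from 0 to 12913 CPM with a median of 1208 CPM, and the 38 homeostatic cells from 0 to 20642 CPM with a median of 6809 CPM. A single cell of the 7 held 56.9% of the Tagln UMIs in deligated 1, and a single cell of the 5 held 60.0% in deligated 2. These 2 cells had 0% and 0.404% mitochondrial UMIs, and without them the sums were 853 CPM and 1424 CPM. Tagln overlaps Pcsk7 and Gm48529 on the opposite strand.

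Tpm2 (ENSMUSG00000028464, chromosome 4, 43514711 to 43523765, minus strand) was at 4262 and 4682 CPM in deligated and 9469 and 9325 CPM in homeostatic myoepithelial cells (log2 difference -1.17, SE 0.15, edgeR adjusted p = 0.00312), lost under thinning (edgeR adjusted p = 0.0775) and without the cell of 15554 UMIs (0.0977). Cnn1 (ENSMUSG00000001349, chromosome 9, 22099216 to 22109630, plus strand), whose protein calponin restrains the myosin motor, was at 1154 and 946 CPM in the deligated and 1967 and 2232 CPM in the homeostatic libraries (log2 difference -1.09, SE 0.23, edgeR adjusted p = 0.0233). Tpm1 (ENSMUSG00000032366, chromosome 9, 67022590 to 67049406, minus strand) was at 3122 and 2537 CPM in the deligated and 4722 and 4555 CPM in the homeostatic libraries (log2 difference -0.80, SE 0.19, edgeR adjusted p = 0.0409). For these 3 genes no deligated library reached a homeostatic one. Without the cell of 15554 UMIs, deligated 2 stood at 7013 CPM of Tpm2, 1403 CPM of Cnn1 and 3416 CPM of Tpm1, still below both homeostatic libraries. The calls of Cnn1 and Tpm1 were lost without that cell (edgeR adjusted p = 0.0755 and 0.16). They were also lost without homeostatic 2 (edgeR adjusted p = 0.254 and 0.271), that of Tpm1 also without homeostatic 1 (0.181), and both with thinned cells (0.233 and 0.298), under the replicate block (0.128 each) and with DESeq2 (adjusted p = 0.0664 and 0.191).

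The rest of the list did not pass the test. Myh11 had a log2 difference of -0.93 (edgeR adjusted p = 0.129), Mylk, the kinase that switches smooth muscle myosin on, -0.73 (0.0842) and Myl9 -0.56 (0.16). Without the cell of 15554 UMIs, deligated 2 stood at 2517 CPM of Myl9, above both homeostatic libraries, and at 2661 CPM of Mylk, above homeostatic 1. Flna, Cald1 and Lmod1 were nearest to 0, at 0.00, -0.08 and -0.18. Outside the list, and named after its values were seen, the myosin light chain gene Myl6 was at 3285 and 3805 CPM in the deligated and 6442 and 6571 CPM in the homeostatic libraries (log2 difference -0.98, SE 0.16, edgeR adjusted p = 0.0101), a call lost without homeostatic 2 (edgeR adjusted p = 0.123), without the cell of 15554 UMIs (0.172) and under the replicate block (0.0747).

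**Figure D4:**
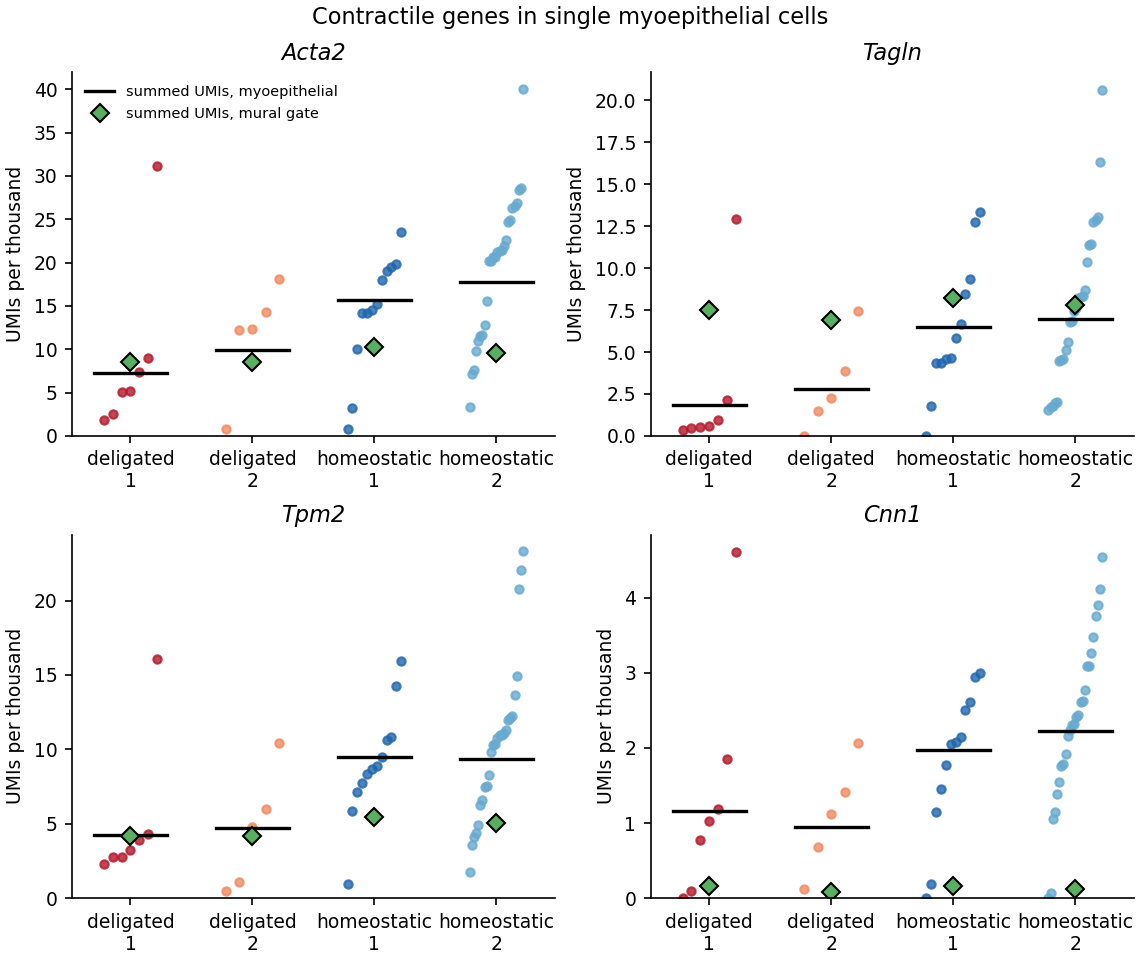
Acta2, Tagln, Tpm2 and Cnn1 in single myoepithelial cells (UMIs per 1000 UMIs of the cell) of the 4 libraries. Each point is a cell, black lines are the summed UMIs of the myoepithelial cells and green diamonds those of the mural cells of the same library. The lines of Tagln, Tpm2 and Cnn1 lie lower in the deligated libraries, 1 cell of deligated 1 stands far above the other 6 in Tagln, and single cells of the groups overlap. Acta2, which the rule used, is shown as description only.

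Mural cells from the same libraries were looked at for the same difference. Tagln was at 7527 and 6933 CPM in the deligated and 8194 and 7821 CPM in the homeostatic libraries in mural cells, and Cnn1 at 168 and 80.9 CPM and 156 and 116 CPM. In a test, added after the data were seen, of whether the deligated minus homeostatic difference itself differed between myoepithelial and mural cells, 0 of 1356 genes (0%) passed by edgeR, with 129 at an unadjusted p under 0.05. On simulated data this test recovered only 24.8% of genes with a log2 change of 2, so 0 calls do not show that the differences were alike. The log2 difference of differences was -1.54 for Tagln (SE 0.28, edgeR adjusted p = 0.108) and -0.85 for Tpm2 (SE 0.23, edgeR adjusted p = 0.207). All 14 contractile genes were negative in it, with a median of -0.77 against -0.07 over all genes. Tagln passed under 4 of 7 alternatives (edgeR adjusted p from 8.9e-05 to 0.163), among them the fit without the 2 members of over 40000 UMIs (edgeR adjusted p = 0.000291), in which 24 genes passed. Without the cell of 15554 UMIs it did not (edgeR adjusted p = 0.163), and 8 genes passed. Without deligated 1, deligated 2, homeostatic 1 or homeostatic 2 the count was 8, 5, 10 and 7.

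**Figure D5:**
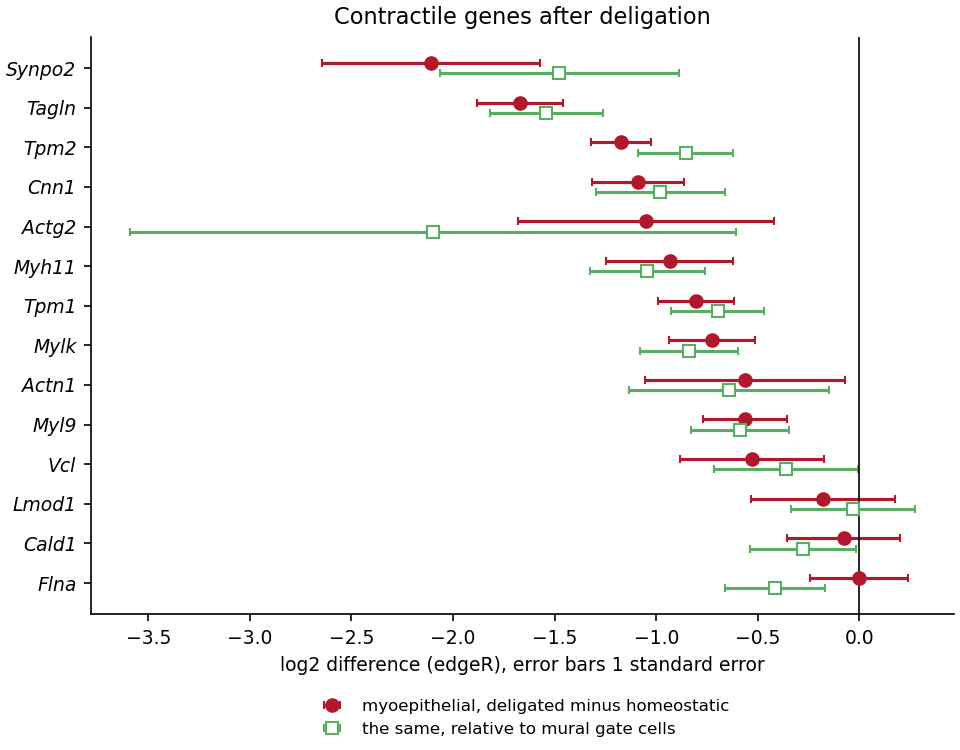
Log2 difference, deligated minus homeostatic, of contractile genes in myoepithelial cells (red circles) and the same relative to mural cells (green squares), with bars of 1 standard error from edgeR. Points left of 0 are lower in the deligated libraries. Acta2, which the rule used, is left out. Tagln, Tpm2, Cnn1 and Tpm1 passed the test in myoepithelial cells, and none of them did without the deligated 2 cell of 15554 UMIs.

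Contractile genes are known targets of serum response factor, which binds the CArG box, and the promoters of the list were searched for that motif. A CArG box is CC, then 6 bases of A or T, then GG, a palindromic pattern that reads the same on both strands. Over the 250 bases before the start in RefSeq (GRCm38.p6), 14 of the 18 contractile genes had an entry, with 15 promoters. An exact match was found in 2 of these 15, and a match with at most 1 deviating middle base in 3 (20%, in Acta2, Myl9 and Vcl), against 482 of 32851 (1.47%) and 2823 (8.59%) of all promoters. Acta2, which defines the myoepithelial cells, and Myl9, which led them, are shown, 5′ to 3′ on the gene's strand, with matches of at most 1 deviating base in capitals. They lie at chr19:34255374-34255623 (minus strand) and chr2:156775214-156775463 (plus strand). The RefSeq start of Acta2 lies inside the gene span given above, which is from the GENCODE annotation and begins further upstream, so most of this window falls within that span. The Acta2 matches begin 84 and 34 bases before the start and those of Myl9 161 and 99 bases before it. A match describes the letters and does not show that a factor binds.
Acta2: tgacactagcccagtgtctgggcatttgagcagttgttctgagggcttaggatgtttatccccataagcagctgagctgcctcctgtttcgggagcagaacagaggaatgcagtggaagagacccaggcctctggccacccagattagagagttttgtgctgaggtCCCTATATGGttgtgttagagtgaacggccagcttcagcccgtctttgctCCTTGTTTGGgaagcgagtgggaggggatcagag
Myl9: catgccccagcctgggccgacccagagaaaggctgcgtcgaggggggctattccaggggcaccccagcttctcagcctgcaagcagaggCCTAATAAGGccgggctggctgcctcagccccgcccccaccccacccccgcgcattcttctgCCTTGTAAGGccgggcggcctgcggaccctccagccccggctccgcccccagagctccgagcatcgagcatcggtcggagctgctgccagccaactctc

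The genes that were higher in deligated myoepithelial cells belonged to several groups. Id4 (ENSMUSG00000021379, chromosome 13, 48261228 to 48266026, plus strand), an inhibitor of basic helix-loop-helix factors, had the smallest p among the 10 highest and was at 2042 and 2006 CPM in the deligated and 306 and 351 CPM in the homeostatic libraries (log2 difference 2.49, SE 0.24, edgeR adjusted p = 0.000667). It had a UMI in 12 of 12 deligated and 30 of 38 homeostatic cells, with cell medians of 2200 CPM and 257 CPM, and in 7 of 38 basal duct cells. Its call was kept under 15 of 16 alternatives, the exception being thinned cells (edgeR adjusted p = 0.0801). It overlaps A330033J07Rik and Gm49291 on the opposite strand. Lgals7 was at 739.9 and 715 CPM in the deligated and 82.4 and 112 CPM in the homeostatic libraries (log2 difference 2.72, SE 0.33, edgeR adjusted p = 0.00312), and homeostatic basal duct cells already held 342 and 346 CPM. In deligated 2, 96.8% of its UMIs came from 1 of the 5 cells, the one of 15554 UMIs, and the other 4 cells held 1 UMI (36.0 CPM), below both homeostatic libraries. Without that cell the gene did not pass the filter on low counts and had no test, so its call rests on this cell. Lgals7 overlaps Gm10648 on the opposite strand.

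Matrix and adhesion genes were among them. Fbln2, a basement membrane fibulin, was at 459 and 254 CPM in the deligated and 23.6 and 3.99 CPM in the homeostatic libraries, from 31 and 11 UMIs (deligated 1 and 2) and 2 and 1 UMIs (homeostatic 1 and 2) (log2 difference 5.11, SE 0.65, edgeR adjusted p = 0.00312). The cell of 15554 UMIs held 8 of the 11 UMIs in deligated 2, the other 4 cells were at 108 CPM, and without it the gene did not pass the filter on low counts. Fibroblasts were at 399 and 312 CPM and 206 and 306 CPM. Col16a1, a minor collagen, was at 192 and 299.8 CPM in the deligated and 35.3 and 35.9 CPM in the homeostatic libraries (log2 difference 2.58, SE 0.44, edgeR adjusted p = 0.0115), a call lost without deligated 2 (edgeR adjusted p = 0.134) and without either homeostatic library (0.0857 and 0.143). Col17a1, the transmembrane collagen of hemidesmosomes, was at 399.5 and 553 CPM in the deligated and 153 and 164 CPM in the homeostatic libraries (log2 difference 1.43, SE 0.33, edgeR adjusted p = 0.0365), the only one of 6 tested genes of its list to pass, where 1.7% of all tested genes were higher, and that call was lost under 8 of 15 alternatives, among them without homeostatic 1 (0.176), without homeostatic 2 (0.21), without the high-UMI members (0.0539), without the cell of 15554 UMIs (0.071) and with DESeq2 (adjusted p = 0.179). Of 8 tested basement membrane genes none passed, and 7 of the 8 were positive with a median of 0.14.

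Tril, Slc29a1, Cpe, Irx1 and Trf were also among the 10 largest increases, with log2 differences from 2.31 to 3.69, and each lost its call without at least 1 library. Ifitm3, an antiviral membrane protein, was the 1 of 4 tested interferon and antigen presentation genes to pass (1.7% of all tested genes were higher), at 1776 and 2583 CPM in the deligated and 930.4 and 1006 CPM in the homeostatic libraries (log2 difference 1.04, SE 0.23, edgeR adjusted p = 0.0344), and was lost under 7 of 16 alternatives, among them without either homeostatic library (edgeR adjusted p = 0.307 and 0.209). All 4 of those genes were positive, with a median of 0.94, as were 683 of all 1356 genes.

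Among the genes that fell, the muscarinic receptor Chrm3 (ENSMUSG00000046159, chromosome 13, 9875486 to 10360847, minus strand, 479 kb of intron) was at 192 and 92.2 CPM in the deligated and 1284 and 958 CPM in the homeostatic libraries (log2 difference -2.96, SE 0.38, edgeR adjusted p = 0.00324). With the intron trend removed it no longer passed (log2 difference -1.11, edgeR adjusted p = 0.19), and the other 14 alternatives that could be fitted kept the call. Chrm3 overlaps Gm26861 on the opposite strand. Slit3 (581 kb of intron) was at 59.2 and 69.2 CPM in the deligated and 236 and 244 CPM in the homeostatic libraries (log2 difference -2.01, SE 0.43, edgeR adjusted p = 0.0254) and turned to 0.02 with the trend removed. Of the 10 largest decreases by the naming rule, Kcnq5, Camk1d and Cmss1 have 556, 414 and 303 kb of intron. Camk1d was at 0 and 23.1 CPM in the deligated and 2026 and 1613 CPM in the homeostatic libraries in myoepithelial cells and at 31.1 and 32.2 CPM and 953 and 999 CPM in leukocytes of the same libraries, and Cmss1 at 44.4 and 23.1 CPM in the deligated and 7254 and 4431 CPM in the homeostatic libraries and 17.2 and 18.3 CPM and 2588 and 2716 CPM. The same gap thus stood in cells of another lineage, and the part of software version in it cannot be told apart from surgery. Kcnq5, a potassium channel subunit, had no UMI in the 12 deligated myoepithelial cells and 102 and 188 UMIs in the homeostatic ones, with a UMI in 36 of 38 cells. Arl15, Mid1, Efna5, Gm15564, 9530026P05Rik, Prol1 and Fxyd2 made up the rest.

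The secretory transcripts Prol1 and Scgb1b27 fell in myoepithelial cells, and their levels in leukocytes were lower in the deligated libraries too. Prol1, a proline-rich saliva protein, had 0 and 0 UMIs (deligated 1 and 2) and 30 and 101 UMIs (homeostatic 1 and 2), and Scgb1b27, a secretoglobin, had 0 and 1 UMIs (deligated 1 and 2) and 36 and 81 UMIs (homeostatic 1 and 2). Leukocytes held 24.1 and 100.3 CPM and 2812 and 1502 CPM of Prol1, and 55.2 and 264 CPM and 5214 and 2437 CPM of Scgb1b27. The leukocyte values were higher than the myoepithelial ones in every library, so the levels in members are not read as expression. The part of free RNA in them was not tested. Of 23 measured granular and striated duct genes, 20 had no UMI in the myoepithelial cells of each deligated library and only 3 passed the filter on low counts, so no count of calls is read from this list. Leukocytes held 628 and 737 CPM of Fxyd2 in the homeostatic libraries.

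Over all members together, 117 of 2640 genes (4.43%) differed by edgeR, 21 (0.795%) higher and 96 (3.64%) lower in the deligated libraries. With the intron trend removed 29 were higher and 21 lower, and genes with over 100 kb of intron gave 81 of the 117 calls. The count was 49 without deligated 1, 261 without deligated 2 and 39 with the replicate block. This sum mixes the kinds in shares that varied between libraries, from 50.0% to 83.3% myoepithelial, so a gene of 1 kind can move with the mixture. Id4 (log2 difference 2.97, edgeR adjusted p = 0.000709), Igfbp5 (2.35, 0.0126) and Lcn2 (2.44, 0.00685) were higher. Igfbp5, a growth factor binding protein of the matrix, was at 3877 and 4843 CPM in the deligated and 1543 and 571 CPM in the homeostatic libraries in myoepithelial cells, and Lcn2, an iron-binding protein of injured epithelium, at 755 and 807 CPM in the deligated and 283 and 156 CPM in the homeostatic libraries. Both lost the call without homeostatic 2, which was 1 of 3 alternatives that lost it for Igfbp5 and the only 1 for Lcn2. No contractile gene passed among 15 tested over all members, where 11 were negative and the median was -0.29.

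In basal duct cells of deligated 1, the only deligated library with more than 1 of them, some levels lay outside the homeostatic range, without a test. Ly6d, at 2912 CPM, and Il33, at 559 CPM, were above both homeostatic libraries (904 and 1315 CPM and 110.0 and 135 CPM). Tfcp2l1 and Ucma, at 1909 CPM and 598 CPM, were within 1.5 times of both. These sums rest on 51858 UMIs of 7 cells.

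Signs of division were scarce. Mki67 had no UMI in the 50 myoepithelial cells and 1 UMI in the 38 basal duct cells. The 20 cell cycle genes summed to 59.2, 277, 47.1 and 43.9 CPM in myoepithelial cells of deligated 1, deligated 2, homeostatic 1 and homeostatic 2, and none had counts enough for the test. At this depth, with 12 deligated myoepithelial cells, a small dividing share would not have been detectable.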

How the data were processed

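The 4 libraries are droplet single-cell RNA libraries, and the deposited matrices hold raw UMI counts per gene and barcode, made by the authors with Cell Ranger 6.0.1 (deligated) and 7.0.0 (homeostatic), per the file headers. The submitters' processing notes list Cell Ranger 6.0.1, Seurat and the mm10 genome. Whether intronic or antisense reads were counted is not given in the sources used here. The file lists 31053 genes, of which 31011 (99.9%) matched the GRCm38 annotation used for positions, introns and overlaps. Promoters came from RefSeq (GRCm38.p6).

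Members and gene lists were chosen with earlier results of these data known. UMI counts were summed per library and kind, and tested with edgeR 4.0.16 (quasi-likelihood, TMM scaling, filterByExpr, Benjamini-Hochberg over all genes tested) in R 4.3.3, on the groups as labelled, without a block. Each expression fit was tested on simulated data with log2 changes of 2. The myoepithelial fit recovered 56.8% of the changed genes, that of all members 61.5% and the test against mural cells 24.8%. The plan's minimum was 10 cells per library, and 5 was used after the data were seen. Comparisons between kinds used log2 of CPM plus 10. No cells were removed as doublets. Scrublet (scanpy 1.11.5, 0.8% per 1000 cells) marked 2 myoepithelial members, and their removal was an alternative, beside DESeq2 1.42.0, other scaling, filters and keratin thresholds, thinning to 1000 UMIs, 500 genes with 5% mitochondrial UMIs, a replicate block, left-out libraries and an offset for intron length. Alternatives without the members of over 40000 UMIs without the deligated myoepithelial cell with the most UMIs, and with only cells over 2000 UMIs, and the test against mural cells, were added after the data were seen. That test filtered genes on the myoepithelial sums, a choice made after a filter over both kinds had been tried. Named genes were list members past the test or highest in a kind, the 10 largest changes each way among called genes whose groups did not overlap at a mean of 50 CPM or more, and the 12 genes with the largest ratio between kinds. A gene that the rule names is not reported here.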

Additional observations from a re-analysis of the deposited data

How the results depend on the processing

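Of the shares, the direction depended most on the denominator: with epithelial cells in place of retained cells the log2 ratio was 3.30 for all members, 3.34 for myoepithelial and 3.19 for basal duct cells. Leaving out 1 library at a time gave -2.0 to 0.093 for all members, -1.40 to -0.05 for myoepithelial and -3.28 to 0.29 for basal duct cells, the highest values without deligated 2 (0.093 for all members, 0.29 for basal duct cells). The difference in the myoepithelial share of both kinds ran from -6.23 (without deligated 2) to 27.1 points, and was -28.6 points with cells thinned to 1000 UMIs. Of 16 alternatives each, 7 moved the count of called genes by over 1.5 times in myoepithelial cells and 7 in all members. In myoepithelial cells (77) they were 51 with DESeq2, 155 with no filter, 17 with the replicate block, 1 with thinned cells and 45 to 211 without 1 library. In all members (117) they were 51, 239, 39 and 16 in the same order, 50 with the intron trend removed and 49 to 261 without 1 library. Relative to mural cells (0) they were 24 without the members of over 40000 UMIs, 8 without the deligated cell with the most UMIs, 19 with a filter over both kinds and 5 to 10 without 1 library. With the intron trend removed the called genes of myoepithelial cells were 29 higher and 23 lower, against 23 and 54. Slit3 in myoepithelial cells (0.017) and Fgfr2 in all members (1.06) changed sign with that trend removed. The cause was not tested. Over all named genes and alternatives, 773 values kept direction and side of the threshold, 169 lost and 19 gained the call. The correlation of same-numbered deviations was 0.06 in myoepithelial cells and -0.10 in all members. With only 2 pairs it cannot tell whether the replicate numbers pair the libraries. Alternatives for basal duct expression were not run, since deligated 2 held 1 such cell. The small number of deligated members, 20 cells, limits every comparison between groups.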
